A study of Homo sapiens with 14 samples.

Results

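The regions described here carried an RNase H1 (RNH1) sensitive DNA:RNA hybrid signal in the peak lists of WT cells and no peak in those of MT cells. DRIP-seq had been performed in Nalm-6, a human pre–B cell leukemia line, with the isogenic genotypes SF3B1-K700K (WT) and SF3B1-K700E (MT), and each genotype had 2 libraries from untreated DNA and 2 from RNH1-treated DNA. The DNA of all 8 libraries came from non-crosslinked cells and had been cut with 5 restriction enzymes before the immunoprecipitation. Each genotype was 1 line obtained from a company, so a difference between the lines and a difference due to the allele cannot be told apart. Nothing in the labels says that the 2 libraries of a group came from separate cultures, and the spread between them may be technical. Peaks of all 8 lists on chromosomes 1 to 22 and X were merged wherever they shared at least 1 base, which gave 479021 regions (GRCh38/hg38). Members were chosen by the presence of peaks: a region had to overlap a peak of both untreated WT lists, and no peak of the 4 RNH1 lists or of either untreated MT list. There were 21489 such regions, 4.49% of all merged regions, and they are called WT only regions below. The same rule with the genotypes exchanged gave 50614 MT only regions, 10.6% of all merged regions. A peak present in both untreated lists of each genotype and in no RNH1 list marked 7084 regions of both genotypes.

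An R-loop is a hybrid of a nascent RNA with its template DNA that leaves the other DNA strand unpaired. RNase H1 degrades the RNA of such hybrids, so a signal of the hybrid-binding antibody S9.6 that is lost on RNH1 treatment is the usual sign that a hybrid was present. SF3B1 is the subunit of the U2 small nuclear ribonucleoprotein that contacts the intron branch point, and K700E is a recurrent change of it in blood cancers. A hybrid pulled down in DRIP-seq brings along the DNA fragment that carries it, so the fragments limit how finely a hybrid can be placed. Whether the DNA was also sheared before library preparation is not given in the sources used here. Peaks say that signal stood above the local background, and fewer cells with a hybrid and fewer hybrids per cell cannot be told apart.

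Sequences at the edges of WT only regions are shown first, because many edges fell on a cut site to the base. The capitals mark recognition sites of the enzymes used: HindIII (AAGCTT), EcoRI (GAATTC), BsrGI (TGTACA), XbaI (TCTAGA) and SspI (AATATT). All are palindromes, so one search covers both strands. Each line holds 60 bases of the plus strand of hg38, with the edge of the region between base 30 and base 31. The first 4 pairs belong to regions among the 10 with the highest enrichment, and the last pair to the stronger of 2 regions in DDX10, a gene of the study's own qPCR assays. Pairs were taken only where both edges lay within 50 bp of a site, so the sites at these edges follow from that choice. Of all WT only regions, 10.4% had both edges exactly at a cut position.
chr6:29026610-29026669, left edge: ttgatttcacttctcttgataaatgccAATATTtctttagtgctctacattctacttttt
chr6:29027428-29027487, right edge: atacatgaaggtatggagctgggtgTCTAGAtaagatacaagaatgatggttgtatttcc
chr4:148683893-148683952, left edge: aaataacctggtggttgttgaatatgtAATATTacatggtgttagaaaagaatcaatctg
chr4:148684605-148684664, right edge: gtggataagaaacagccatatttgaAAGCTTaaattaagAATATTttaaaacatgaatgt
chr11:76368092-76368151, left edge: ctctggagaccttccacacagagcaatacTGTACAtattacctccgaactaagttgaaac
chr11:76368545-76368604, right edge: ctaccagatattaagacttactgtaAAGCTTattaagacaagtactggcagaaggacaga
chr16:61066712-61066771, left edge: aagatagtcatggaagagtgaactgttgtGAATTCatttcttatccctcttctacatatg
chr16:61067258-61067317, right edge: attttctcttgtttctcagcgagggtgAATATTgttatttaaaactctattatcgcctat
chr11:108687677-108687736, left edge: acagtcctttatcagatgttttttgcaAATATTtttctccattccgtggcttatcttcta
chr11:108688468-108688527, right edge: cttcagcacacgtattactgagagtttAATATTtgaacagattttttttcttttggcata

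The 150 bases around the higher of the WT summits are shown for 5 of the 10 most enriched regions, to show how their base composition varied. The first 2 belong to the 2 most enriched regions, whose windows held the most GC of those read, and the other 3 held less. The capitals mark the longest run of A and T in each window.
chr6:19595005-19595154, 39.3% GC, a run of 7 bases: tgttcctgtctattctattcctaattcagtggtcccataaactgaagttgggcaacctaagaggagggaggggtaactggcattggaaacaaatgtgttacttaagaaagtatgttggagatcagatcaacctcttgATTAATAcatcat
chr4:147680330-147680479, 43.3% GC, a run of 4 bases: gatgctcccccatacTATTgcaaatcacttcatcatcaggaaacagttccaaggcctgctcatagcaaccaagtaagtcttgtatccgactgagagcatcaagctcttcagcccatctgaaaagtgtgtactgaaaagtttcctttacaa
chr3:67929270-67929419, 27.3% GC, a run of 12 bases: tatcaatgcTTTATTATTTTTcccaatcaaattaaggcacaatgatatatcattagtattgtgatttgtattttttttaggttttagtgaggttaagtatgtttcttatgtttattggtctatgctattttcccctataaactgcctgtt
chr4:148684170-148684319, 25.3% GC, a run of 14 bases: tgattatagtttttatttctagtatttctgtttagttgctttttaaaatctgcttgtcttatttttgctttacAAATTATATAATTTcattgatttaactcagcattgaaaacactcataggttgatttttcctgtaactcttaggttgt
chr10:52906092-52906241, 34.7% GC, a run of 9 bases: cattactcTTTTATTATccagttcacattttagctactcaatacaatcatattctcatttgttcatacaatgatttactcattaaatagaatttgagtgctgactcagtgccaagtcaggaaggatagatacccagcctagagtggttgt

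The lists differed in length and depth, which bears on every absence used here. The untreated WT lists held 123582 and 130928 peaks on the chromosomes used, the untreated MT lists 253744 and 295970, the WT RNH1 lists 34857 and 77391, and the MT RNH1 lists 201117 and 198158. Read totals are not in the lists, but the summit pileup and the background could be recovered from the fold enrichment and the −log10 p of each peak. The genome-wide background was 2.99 and 3.13 reads for the untreated WT libraries. It was 3.51 and 4.35 reads for the untreated MT libraries, 1.62 and 2.17 for WT with RNH1 and 2.76 and 2.55 for MT with RNH1. Among 5000 sampled peaks per list, the lowest summit held 11 reads in both untreated WT lists, 11 and 13 in untreated MT, 8 and 9 in WT RNH1 and 10 and 9 in MT RNH1 lists. The WT RNH1 lists were therefore the shortest and had the lowest background, and the part of depth in the absence of RNH1 peaks was not tested. With each untreated MT list shortened to the length of the WT list of its number, keeping its most significant peaks, the same rules gave 28037 WT only and 12663 MT only regions. Only untreated MT peaks were removed, which can add WT only regions but not take any away. The RNH1 lists were left whole, so the MT RNH1 lists were then longer than the untreated MT lists. Which genotype had more regions of its own thus turned with this shortening, and the part of list length by itself was not tested.

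Of 86662 regions with a peak in both untreated WT lists, 32961 (38.0%) had no RNH1 peak. Of these, 21489 (65.2%) had no untreated MT peak and were members, 4388 (13.3%) had a peak in 1 MT list and 7084 (21.5%) in both. The WT only regions spanned 12.2 Mb with a median length of 510 bp, from 326 bp at the 10th to 881 bp at the 90th percentile. MT only regions had a median length of 493 bp and regions of both genotypes 746 bp. In 21297 (99.1%) of the WT only regions each WT list had a single peak.

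The fold enrichment at WT only regions, the ratio of the summit pileup over the local background, ran in WT replicate 1 from 2.33 through a median of 4.51 to 16.6, and in replicate 2 from 2.29 through a median of 4.61 to 16.1. These values chose the members only through the presence of a peak and are given as a description. The median summit held 20 reads in replicate 1 and 21 in replicate 2, and the 90th percentile 33 and 35 reads. Most WT only regions were thus modest peaks: 12393 (57.7%) reached 4-fold in both replicates, 457 reached 8-fold and 9 reached 12-fold. Across regions, which are not independent replicates, the fold enrichments of the replicates had a Spearman rho of 0.66, and 20434 (95.1%) agreed within 1.5-fold. The replicates differed in the median by 0.02 on the log2 scale, with an SD over regions of 0.29. Regions with a peak in both genotypes were about as enriched in WT: the median of the geometric mean of the replicates was 4.61 there and 4.54 in WT only regions. It was higher, 5.40, in regions with peaks in both untreated WT lists, no untreated MT peak and an RNH1 peak. The part of WT enrichment in the absence of RNH1 peaks was not tested.

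**Figure D1:**
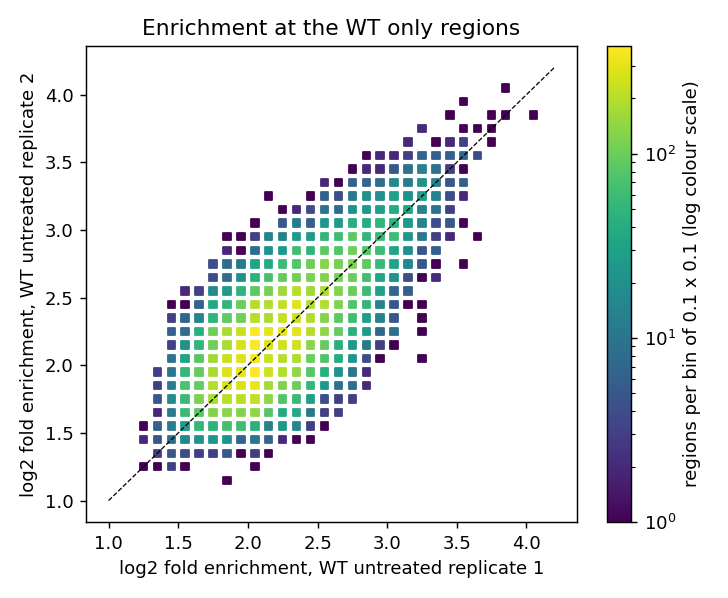
Fold enrichment at the 21489 WT only regions, as log2 values of WT untreated replicate 1 (horizontal axis) and replicate 2 (vertical axis); each square is a bin of 0.1 by 0.1 and its colour, on a log scale, the number of regions. The cloud lies along the dashed line of equal enrichment, with a Spearman rho of 0.66, and few regions lie beyond 8-fold, a log2 value of 3.

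The most enriched WT only region lay at chr6:19594773-19595447, in an intron of the long non-coding RNA LNC-LBCS, 241922 bp from the nearest protein-coding gene, ID4. It had 14.8-fold and 16.1-fold enrichment with 112 and 122 reads at the summit. The MT lists held their nearest untreated peaks 304 bp away, outside the region. The region at chr4:147680164-147680671 overlapped an exon of PRMT9, an arginine methyltransferase that modifies the splicing factor SF3B2. Its enrichment was 16.6-fold and 14.3-fold, with 103 and 97 reads, and the nearest untreated MT peak was 4825 bp away. At chr11:76368122-76368574, 294.5 bp from a start site of THAP12, a zinc finger gene, the enrichment was 12.6-fold and 12.1-fold. At chr5:34956211-34956552, in an area classed as promoter within DNAJC21, a gene of ribosome assembly, it was 12.1-fold and 13.7-fold. Both replicates were high at each of these 4 regions, with the lower value about 12 or more.

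The other 6 of the 10 most enriched lay at chr8:82558945-82559336 (introns of unnamed long non-coding RNAs), chr10:52905912-52906335 (intergenic, nearest to MBL2), chr3:67929251-67929584 (an intron of SUCLG2-DT), chr6:29026640-29027457 (over the olfactory receptor pseudogene OR2AD1P), chr4:148683923-148684634 (an intron of an unnamed long non-coding RNA) and chr16:61066742-61067287 (intergenic, nearest to CDH8). Their enrichments were between 12.1 and 14.1 in replicate 1 and between 11.96 and 14.7 in replicate 2. Of the 10, then, 3 overlapped a protein-coding gene.

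At the other end, the 5 weakest members had a lower enrichment of 2.29 to 2.36 in one replicate and up to 3.68 in the other. They lay in the 3′ UTR of BMP1, a procollagen protease, near ZNF518A, in an intron of RAD51B, a homologous recombination gene, near HTR5A and near OR10H3. The region in RAD51B had a peak of each of the other 6 lists at 448 bp. Just outside the rule were regions whose only MT peak was the weakest of its kind: 5 such regions had an MT replicate 2 peak of 2.05-fold to 2.21-fold and WT enrichments of 3.35 to 7.46. These included an intron of CTNNA2 and an intron of ZFR, an RNA-binding zinc finger gene. The WT enrichments of the 5 regions just outside thus lay within the range of those of members. Members have no untreated MT peak, so no MT value could be set beside theirs.

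The longest members were 2530 bp at chr21:43303904-43306433, 2205 bp at chr2:95387918-95390122, 2144 bp at chrX:18999614-19001757 in ADGRG2, 2078 bp at chr13:44195699-44197776 at SMIM2-AS1 and 2063 bp at chr12:116109748-116111810 in MED13L, a Mediator kinase module gene. WT only regions of 2 kb or more numbered 9. The GC content of the first 2 was 57.6% and 57.7%, far above the median of the class.

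Base composition set WT only regions apart from MT only regions, regions of both genotypes and all merged regions. Their median GC content was 34.1% (10th to 90th percentile 28.6% to 43.3%), against 42.4% (36.4% to 48.9%) in MT only regions, 40.1% in regions of both genotypes and 40.2% in all merged regions. Under 30% GC lay 3912 (18.2%) of the WT only and 142 (0.281%) of the MT only regions. The 10 kb to each side of a WT only region had a median GC content of 37.6%, against 39.5% beside MT only regions, so WT only regions were poorer in GC than their surroundings and MT only regions richer, by the medians. Regions with peaks in both untreated WT lists, no untreated MT peak and an RNH1 peak had a lower median still, 32.8%. Of those, 67.1% lay under 35% GC, against 56.5% of WT only regions, so low GC was not particular to WT only regions. The difference was present in every annotation class: 35.6% in WT only and 43.2% in MT only regions at promoters, 34.0% and 42.1% in introns, and 33.6% and 42.2% between genes.

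**Figure D2:**
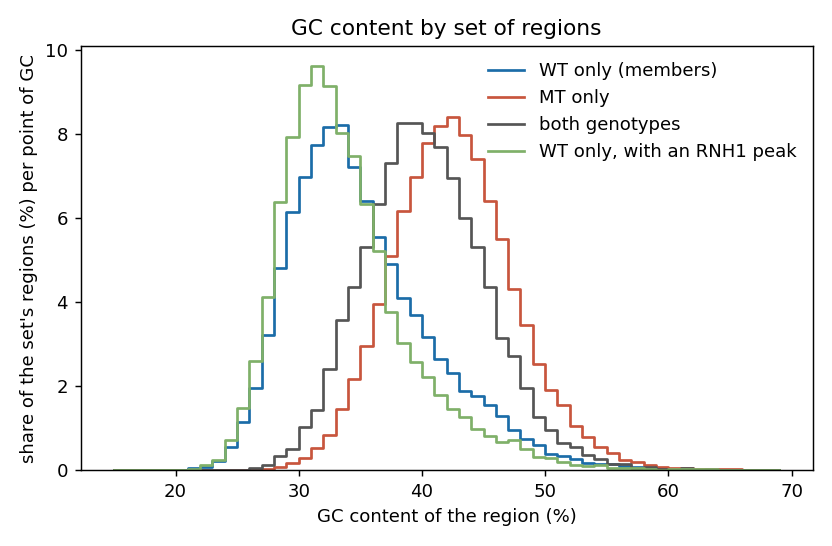
GC content of the regions (horizontal axis, %) against the share of each set's regions per point of GC (vertical axis, %), for WT only regions, MT only regions, regions of both genotypes and WT only regions that had an RNH1 peak. The sets without untreated MT peaks centre at 34.1% and 32.8% GC, the MT only set at 42.4%.

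Among regions sensitive in WT, the share without an MT peak followed GC content and hardly followed enrichment. It was 95.1% of 3907 regions between 25% and 30% GC, 81.4% of 10117 between 30% and 35%, 55.6% of 9530 between 35% and 40%, and 42.0% of 6025 between 40% and 45%. It then rose again to 45.8%, 49.6% and 59.6% in the bins above 45%, 50% and 55% GC, the last with 188 regions. By contrast, the share was 66.6% of 8893 regions with a WT enrichment of 3-fold to 4-fold and 59.6% of 1130 regions of 8-fold to 12-fold. The lists as a whole differed in the same direction: regions with a peak of the untreated WT lists had a median GC content of 37.4% and 37.8%, those of the untreated MT lists 41.1% and 40.7%, those of the WT RNH1 lists 38.0% and 39.05%, and those of the MT RNH1 lists 40.1% and 39.97%. GC content of the whole list moved with genotype, and its part in the membership was not tested. Within WT only regions the enrichment changed little with GC: the median in replicate 1 was 4.76 under 30% GC and 4.26 at 45% or more.

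Of 4 motifs searched, 2 were less frequent in WT only than in MT only regions, 1 was more frequent and 1 about equally frequent. A G-quadruplex pattern, 4 runs of at least 3 G (or C, for the other strand) separated by 1 to 7 bases, was found in 1.93% of WT only and 4.30% of MT only regions, against 4.55% of all merged regions. A run of 12 A or 12 T was found in 6.11% and 7.93%, against 10.03% of all. A repeat of 8 TA units was found in 0.335% of WT only and 0.0296% of MT only regions, against 0.166% of all. It was also found in 0.254% of regions of both genotypes. In regions with peaks in both untreated WT lists, no untreated MT peak and an RNH1 peak it was found in 0.702%. The TA repeat was thus not particular to WT only regions, and motif shares were not split by GC content. A repeat of 8 TG or 8 CA units was found in 1.12% of both WT only and MT only regions, against 1.62% of all. The median imbalance of G over C in a region, in either direction and as a share of both, was 0.0862 in WT only and 0.0825 in MT only regions. The ratio of observed to expected CpG was 0.143 and 0.166. A match is a description of the letters and shows no structure.

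Restriction sites marked the edges of WT only regions. With 5′ overhangs counted as filled in, 16106 of 42978 edges (37.5%) fell on a cut position to the base, against 31.4% in MT only regions, 40.5% in regions of both genotypes and 30.7% in all merged regions. At least 1 edge was exact in 13878 (64.6%) of the WT only and 60.8% of the MT only regions. Both edges were exact in 2228 (10.4%) of the WT only regions, against 993 (1.96%) of the MT only regions, 783 (11.1%) of the regions of both genotypes and 4.18% of all. The larger share than in MT only regions was seen within each range of GC content: 8.39% in WT only against 0.917% in MT only regions under 35% GC, 11.8% against 2.37% between 35% and 40%, and 14.5% against 1.90% at 40% or more. The trait was not particular to WT only regions. Regions of both genotypes had 8.39%, 11.5% and 11.5% in these ranges, and regions without an untreated MT peak that had an RNH1 peak had 14.8%, 17.4% and 17.5%. Cut sites are themselves rich in A and T, so the comparison within GC ranges is the one to read.

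The density of sites showed the same. In regions of at least 500 bp, the 50 bp on either side of an edge held 5.34 sites per kb in WT only and 3.44 in MT only regions, while 500 to 1000 bp outside there were 2.28 and 2.02. Between 100 and 250 bp inside the edge there were 0.115 and 0.139. SspI, whose site holds only A and T, reached 2.27 sites per kb at the edges of WT only regions and 0.901 at those of MT only regions, with 1.05 and 0.846 far outside. HindIII reached 0.982 and 0.851, with 0.302 and 0.309 outside. The edges of regions of both genotypes held 5.02 sites per kb for all 5 enzymes, with 2.13 outside, 1.60 for SspI and 1.18 for HindIII. A high density at edges was thus not particular to WT only regions, and these densities were not split by GC content. The restriction fragment under the summit had a median length of 877 bp in WT only and 1208 bp in MT only regions. Between 30% and 35% GC these were 862 and 900 bp, and between 40% and 45% GC 953 and 1226 bp. In 2310 (10.7%) of the WT only regions the region and that fragment differed in length by at most 10 bp, and 17301 (80.5%) were more than 50 bp shorter than the fragment.

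**Figure D3:**
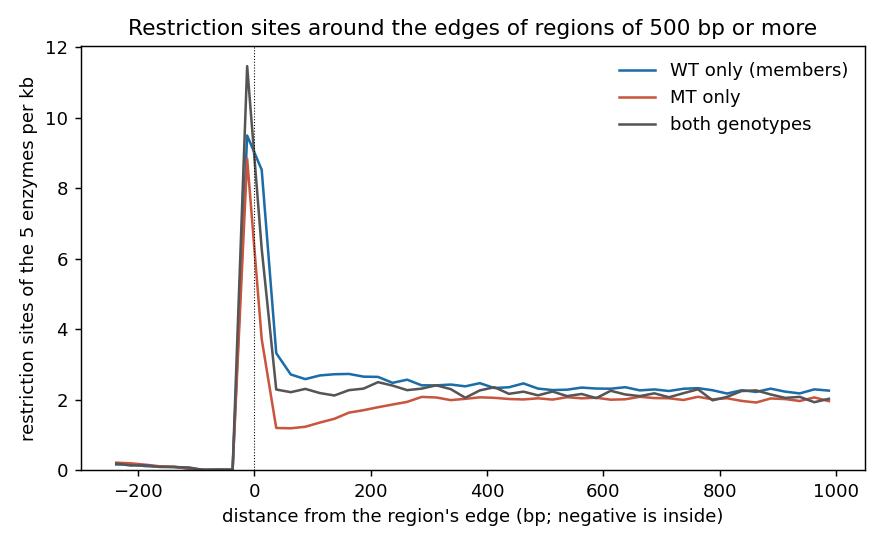
Restriction sites of the 5 enzymes per kb (vertical axis) against the distance from the edge of the region (horizontal axis, bp, negative values inside), for WT only regions, MT only regions and regions of both genotypes of at least 500 bp, in bins of 25 bp. All sets have a peak of sites in the bins on either side of the edge and almost none between 25 and 100 bp inside it. In the 25 bp inside the edge WT only regions reach 9.50 sites per kb, regions of both genotypes 11.5 and MT only regions 8.84. In the 25 bp outside the edge WT only regions reach 8.53 sites per kb, regions of both genotypes 6.29 and MT only regions 3.72.

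Cut-to-cut peaks could also be counted in peaks that the rule did not use. In the 42800 regions with a peak of all 4 untreated lists, 5.72% and 6.22% of the WT peaks and 3.09% and 3.84% of the MT peaks had both edges exactly at a cut position. The WT mean was 5.97% ± 0.359 (SD, n = 2), and the MT mean 3.46% ± 0.532 (SD, n = 2). Both WT libraries lay above both MT libraries. An exact two-sided permutation over the libraries gave p = 0.333, and no lower value, nor one under 0.05, can be had from groups of 2. Single edges were exact in 29.6% and 30.03% in WT and in 28.8% and 30.8% in MT (exact permutation test, p = 1). Counted within 50 bp of a site, the measure chosen first, single edges came to 33.8% and 34.3% in WT and 31.5% and 33.6% in MT (exact permutation test, p = 0.333). The excess at WT only regions was therefore accompanied by a smaller one at peaks present in both genotypes.

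The presence of the pattern was looked up in replicates that had not chosen it. Regions with a WT untreated peak and no other peak were chosen from the 4 lists of replicate 1, which gave 49437 regions. In the lists of replicate 2, 61.7% of them had a WT untreated peak, against 26.8% of all merged regions, 11.8% an MT untreated peak, against 60.5%, 12.7% a WT RNH1 peak, against 15.8%, and 3.50% an MT RNH1 peak, against 40.4%. The whole pattern was found again in 43.5%, beside 9.1% of all merged regions. Chosen from the lists of replicate 2, 43600 regions had a WT untreated peak of replicate 1 in 55.2%, against 25.2% of all merged regions, an MT untreated peak in 6.62%, against 51.9%, a WT RNH1 peak in 1.72%, against 7.10%, and an MT RNH1 peak in 2.01%, against 41.1%. The whole pattern was found in 49.3%, beside 10.3% of all merged regions. Recovery was lower where GC was higher, but the share over all merged regions fell more steeply. From replicate 1 to replicate 2, recovery was 47.5% under 35% GC and 35.9% at 40% or more, beside 25.1% and 4.86% of all merged regions. The fall is therefore not read as a trait of the chosen regions. With replicate 1 choosing, the WT RNH1 share in replicate 2 was close to that of all regions, while with replicate 2 choosing it lay below it.

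The nearest MT signal was seldom far. The median distance from a WT only region to the nearest untreated MT peak was 3068 bp in replicate 1 and 2652 bp in replicate 2. In 88.9% and 91.6% there was one within 10 kb. The nearest WT RNH1 peaks were at a median of 24996 and 11100 bp, and the nearest MT RNH1 peaks at 3954 and 3872 bp. From MT only regions, the nearest untreated WT peaks were at a median of 7518 and 7118 bp. The nearest WT RNH1 peaks were there at 27491 and 11962 bp and the nearest MT RNH1 peaks at 4761 and 4780 bp, similar to the distances from WT only regions. No peak of the other 6 lists lay within 1 kb of 14791 (68.8%) of the WT only regions, and none within 10 kb of 637 (2.96%). The WT RNH1 lists, which held the fewest peaks, were thus the most distant of these. The untreated MT lists held the most peaks, and the part of list length in these distances was not tested.

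Shared peaks near WT only regions had a slightly lower fold enrichment in WT, with a higher local background and no lower summit. Of the regions with a peak in all 4 untreated lists, 6308 lay within 10 kb of a WT only region. Their median enrichment relative to all shared regions was −0.04 and −0.05 on the log2 scale in the WT libraries and 0.02 and 0.02 in the MT libraries. The mean difference of WT minus MT was −0.06 on the log2 scale, with an SD of 0.012 in WT and 0.00046 in MT (n = 2 each; exact permutation over libraries, p = 0.333, again the lowest attainable). Within 2 kb lay 1119 shared regions, at −0.14 and −0.17 in the WT libraries against 0.02 and 0.05 in the MT libraries. Around MT only regions the roles were exchanged, with −0.10 and −0.11 in the MT libraries and −0.02 and −0.02 in the WT libraries within 2 kb. The ratio is taken over a local background, which reads of a neighbouring peak enter, so the rule that chose WT only regions by their WT peaks also bears on it. Within 2 kb the local background, as a mean over regions, stood 0.21 and 0.20 above that of all shared regions on the log2 scale in the WT libraries, and at −0.02 and −0.02 in the MT libraries. The summit reads stood at 0.02 and 0.02 in WT and at 0.01 and 0.03 in MT. Around MT only regions the background was raised in the MT libraries, by 0.12 and 0.12. The lower ratio thus went with the background and not with the summit, and nothing about the strength of the shared peaks is read from it.

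**Figure D4:**
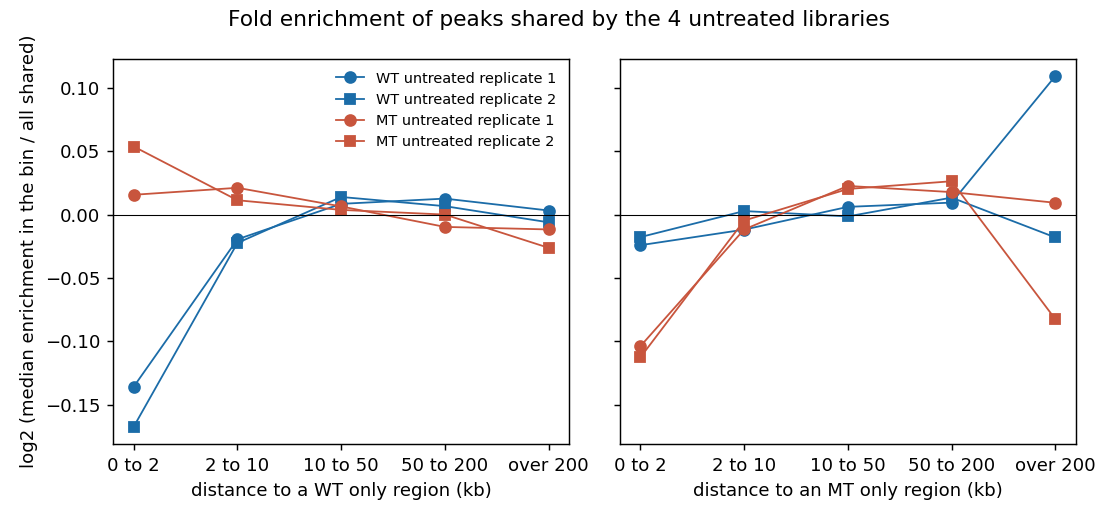
Median fold enrichment of regions with a peak in all 4 untreated libraries, as a log2 ratio over the median of all such regions (vertical axis), by distance in kb to the nearest WT only region (left) or MT only region (right); each point is 1 library. Within 2 kb the 2 WT libraries lie at −0.14 and −0.17 on the left and the 2 MT libraries at −0.10 and −0.11 on the right, and beyond 10 kb the values are near 0, except in the last bin on the right, which holds 147 regions.

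By annotation, 45.1% of the WT only regions lay in introns, 36.4% between genes, 14.1% within 3 kb of a start site, 2.40% in exons, 1.67% in 3′ UTRs and 0.130% in 5′ UTRs, with 0.144% just downstream of genes. MT only regions were more often at promoters, with 17.6%, and less often between genes, with 33.4%. All merged regions had 15.6% and 35.5%. Only 1.14% of the WT only regions had their centre within 250 bp of a start site, against 2.18% of the MT only and 1.58% of all merged regions. The median distance to a start site was 18974 bp in WT only and 15434 bp in MT only regions. WT only regions at promoters had a median GC content of 35.6%, and 46.0% of them were under 35%.

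Chromosomes differed in the density of WT only regions along with their GC content. Over all chromosomes there were 7.38 per Mb of sequenced bases. Chromosomes 4 and 13, with 38.2% and 38.6% GC, had 10.5 and 9.46 per Mb, whereas chromosomes 19 and 22, with 47.9% and 47.0%, had 3.08 and 3.35. Across the 23 chromosomes Spearman's rho of density with GC content was −0.80, where the points share the libraries. The X chromosome stood off this pattern, with 3.25 per Mb at 39.5% GC, and it was also low in MT only regions, with 7.50 per Mb against 17.4 over all chromosomes. Relative to 100 MT only regions, WT only regions numbered 56.3 on chromosome 4 and 51.4 on chromosome 13, but 28.0 on chromosome 16, and 43.4 on X, close to the 42.5 of all chromosomes.

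**Figure D5:**
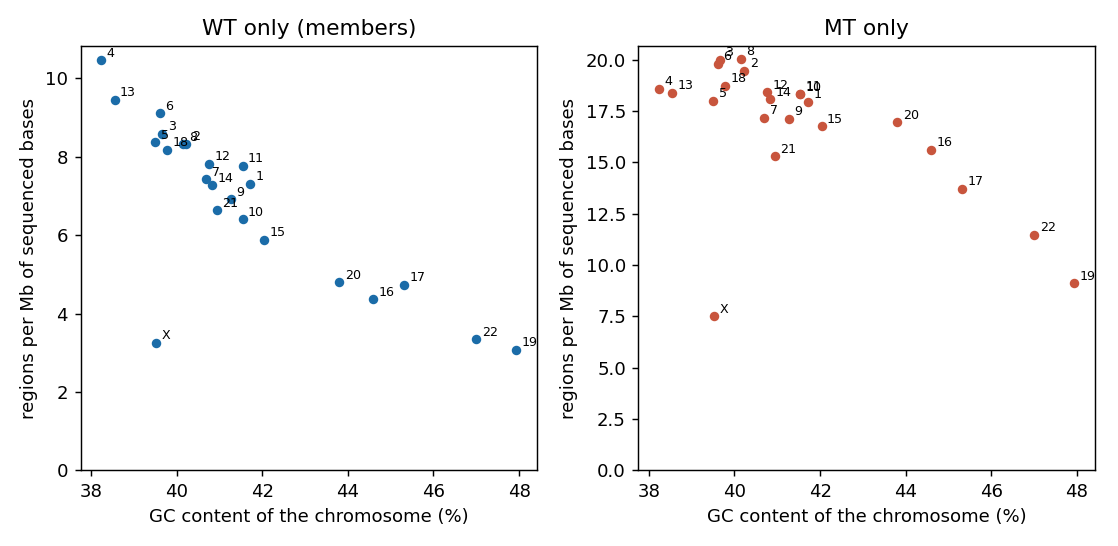
WT only (left) and MT only (right) regions per Mb of sequenced bases (vertical axis) against the GC content of the chromosome (horizontal axis, %); each point is a chromosome and bears its name. WT only regions fall from 10.5 per Mb on chromosome 4 to 3.08 on chromosome 19, and X lies below both clouds, at 3.25 and 7.50.

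WT only regions were spread over the genome, with at least 1 in 2793 (91.8%) of 3044 windows of 1 Mb and a median of 7 in those. Another WT only region lay within 10 kb of 16.1% of them, and the median gap to the next was 37916 bp. The windows richest in them were gene-poor. The window chr3:145000001-146000000 held 26 WT only and 10 MT only regions and no protein-coding gene, and chr9:30000001-31000000 held 26 and 12, again with no protein-coding gene. The windows chr1:188000001-189000000 and chr4:33000001-34000000, with 25 and 24 WT only and 16 and 17 MT only regions, had none either. Only chr6:121000001-122000000, with 25 and 14, contained protein-coding genes, TBC1D32 and the gap junction gene GJA1. In these 5 windows the WT only regions had median GC contents of 30.5% to 33.7% and median enrichments of 4.29 to 5.43 in replicate 1.

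Among windows with at least 20 WT only and MT only regions together, the share of WT only regions was highest in that same window of chromosome 3, at 72.2%, followed by chr13:56000001-57000000 with 71.4%, chr5:85000001-86000000 with 69.2%, chr4:132000001-133000000 with 68.8% and the window of chromosome 9 with 68.4%. In 175 (6.09%) of 2872 windows with any such region, WT only regions outnumbered MT only regions. With the shortened MT lists they did so in 2406 (84.5%) of 2848 windows, so this share turned with that shortening, which left the RNH1 lists whole. Over these windows, which share the libraries and their neighbours, the number of WT only regions had a Spearman rho of −0.68 with local GC content, and that of MT only regions −0.15.

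Of 19970 protein-coding genes, 4512 overlapped a WT only region, which is 22.6%, and 7879 an MT only region, which is 39.5%. Of the 4512 genes, 3471 (76.9%) also held an MT only region. The count followed gene length: 1.54% of genes under 10 kb and all 71 genes of 1 Mb or more held a WT only region, and the median length was 114 kb with and 18.4 kb without one. Density rose with length too, from 3.30 WT only regions per Mb in genes under 10 kb to 9.43 in those over 1 Mb. For MT only regions these densities were 12.3 and 19.6. Overlapping genes count a region more than once, and DRIP-seq as listed gives no strand, so a gene and its antisense partner cannot be told apart.

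The genes with most WT only regions were all very long. EYS, a photoreceptor gene, and PTPRD, a receptor tyrosine phosphatase, each held 30, beside 32 and 41 MT only regions. PCDH15, a cadherin of hair cells, held 29 beside 26, and DLG2, a synaptic scaffold gene, 26 beside 40. ROBO1, a receptor in axon guidance, held 26 beside 17 and ROBO2 22 beside 29. PDE4D, a cyclic AMP phosphodiesterase, held 25 beside 25, the receptor kinase gene ERBB4 22 beside 16, MACROD2 22 beside 56 and CCSER1 21 beside 27. WT only regions exceeded MT only regions in 3 of these 10 genes, PCDH15, ROBO1 and ERBB4, and in all 10 with the shortened MT lists.

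Among genes with at least 5 WT only regions the density was highest in KCNC2, a potassium channel gene, with 8 in 170 kb (4.71 per 100 kb). HERC4, a ubiquitin ligase gene, followed with 7 in 153 kb and PTPN13, a tyrosine phosphatase gene, with 9 in 221 kb. Next came SLCO6A1 with 5, CEP83, a centriole gene, with 6, ANKIB1 with 6, PLA2R1 with 5, PRKACB, a catalytic subunit of protein kinase A, with 6, TRIQK with 5 and BRWD1, a bromodomain gene, with 5. MT only regions in these 10 genes numbered 2 to 6, and in PLA2R1 they outnumbered the WT only regions. The genes were chosen for their density, so these values are a description.

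Of 35 B-lineage identity genes, 12 held 21 WT only regions, or 34.3%, beside 22.6% of all protein-coding genes. Their density was 4.63 WT only and 24.3 MT only regions per Mb, against 7.05 and 17.9 in all protein-coding genes. Their median length was 82.4 kb, against 27.5 kb in all. Of all protein-coding genes of 50 to 100 kb, 32.4% held a WT only region. EBF1, a transcription factor that commits cells to the B lineage, held 4 WT only and 16 MT only regions. Its WT only regions included chr5:158959616-158960515, with 6.63-fold and 5.47-fold enrichment. RAG1, the recombinase subunit that cuts antigen receptor genes, held 3 and 0. Their enrichments were 5.12-fold and 3.39-fold at chr11:36535868-36536567, 5.82-fold and 6.60-fold at chr11:36541450-36541941, and 3.63-fold and 3.64-fold at chr11:36570563-36570950. The replicates were thus close at the last of these regions and 1.5 times apart at the first.

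RUNX1, a hematopoietic transcription factor, held 3 WT only regions beside 33 MT only regions. One of them, in an intron at chr21:34893409-34893738, had 10.6-fold and 11.1-fold enrichment with 43 and 50 reads and was the strongest on the B-lineage list, and the nearest untreated MT peak was 1458 bp away. LEF1, a Wnt pathway transcription factor, and MME, which encodes the leukemia antigen CD10, held 2 each. A single region was found in PTPRC, which encodes CD45, at 5.01-fold and 6.06-fold, in BLNK, an adaptor of B cell receptor signalling, at 6.09-fold and 7.30-fold, and in BLK, BCL11A, ETV6, MYB and POU2AF1.

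All 26 genes of common fragile sites, which are late replicating and break under replication stress, held WT only regions, 298 in all. They were long, with a median of 1376 kb, and their density of 8.24 per Mb lay below the 9.43 of all genes over 1 Mb. Their MT only regions came to 20.4 per Mb, against 19.6 in genes of that length. DLG2 held 26 WT only regions, PDE4D 25, MACROD2 22, CNTNAP2 21, CTNNA3 and LRP1B 19 each, NAALADL2 17 and MAGI2 15. FHIT and WWOX, tumour suppressor genes at the most fragile of these sites, held 8 and 3 beside 44 and 28 MT only regions. RBFOX1 held 5 beside 57. The median GC content of the WT only regions in these genes was 33.9%.

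Of 30 R-loop resolving and restraining factors, 8 held 12 WT only regions, or 26.7%, near the 22.6% of all protein-coding genes. DHX9, a helicase that unwinds hybrids, held 2, at chr1:182851198-182851472 with 3.53-fold and 2.84-fold and at chr1:182885572-182886114 with 3.86-fold and 3.56-fold enrichment. BRCA2, a recombination gene that limits R-loops, and THOC2, of the mRNA export complex, held 2 each. Single regions lay in AQR, a helicase of the spliceosome, in TOP3B, a topoisomerase, and in 2 genes for RNA-binding proteins. These were SRSF1, at chr17:58002262-58002623 with 3.74-fold and 4.39-fold, and SERBP1, at chr1:67420579-67421631 with 4.71-fold and 3.03-fold. The 10 regions in the 7 genes named were modest peaks, with enrichments in replicate 1 between 3.18 and 4.71.

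Of 22 genes of the U2 small nuclear ribonucleoprotein and 3′ splice site recognition, 2 held a WT only region, or 9.09%, beside 22.6% of all protein-coding genes, and 7 held 12 MT only regions. SF3B3, a partner of SF3B1, held one at chr16:70566136-70566636, whose edges both lie at cut sites, with 4.51-fold and 3.64-fold enrichment. SF3B6, the subunit at the branch point, held one over an exon at chr2:24068271-24068664, with 3.98-fold and 3.54-fold. The genes of this list were short, with a median of 19.6 kb.

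Of 22 DNA damage checkpoint genes, 8 held 11 WT only regions, or 36.4%, beside 22.6% of all protein-coding genes. Their median length was 52.9 kb, against 27.5 kb in all, and per Mb they held 8.56 WT only and 15.6 MT only regions, against 7.05 and 17.9. ATR, the kinase activated by single-stranded DNA, held 2, RAD50, of the complex that senses breaks, 2, and TOPBP1, an activator of ATR, 2. ATM, CLSPN, MRE11, RPA3 and WEE1 held 1 each. The strongest was in RPA3, a subunit of the single-strand binding protein, at chr7:7711433-7712006 with 6.95-fold and 6.39-fold enrichment and 27.2% GC. The regions in RAD50 included chr5:132568732-132569313, with 4.96-fold and 5.38-fold and 48 and 56 reads, 193 bp from an untreated MT peak.

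Of 35 centromere and kinetochore genes, 10 held 14 WT only regions, or 28.6%, beside 22.6% of all protein-coding genes. Per Mb they held 9.06 WT only and 19.4 MT only regions, against 7.05 and 17.9 in all. CENPE, a kinesin of the kinetochore, held 3, the strongest at chr4:103171380-103171699 with 7.19-fold and 5.09-fold. CENPC and CENPP, of the inner kinetochore, held 2 each, and BUB1, a checkpoint kinase, held 1 at chr2:110656227-110656770 with 5.78-fold and 6.04-fold. BUB1B, CENPH, CENPK, CENPW, NDC80 and NUF2 held 1 each. Of 10 loci often used as R-loop positive controls, 1 held a WT only region, or 10%, beside 22.6% of all protein-coding genes. It was ING3, at chr7:120972243-120972730 with 5.01-fold and 6.06-fold, and none of the loci held an MT only region. These loci were short, with a median of 7.85 kb against 27.5 kb in all protein-coding genes. Their density was 8.52 WT only regions per Mb, from that 1 region, against 7.05.

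Among 12 genes of the study's DRIP-qPCR and CLIP-qPCR assays, 4 held 5 WT only regions, or 33.3%, beside 22.6% of all protein-coding genes. Per Mb these 12 genes held 5.98 WT only and 23.9 MT only regions, against 7.05 and 17.9 in all. Their median length was 33.65 kb, against 27.5 kb in all. DDX10, an RNA helicase gene, held 2, beside 5 MT only regions. The first, chr11:108687707-108688497, was the fragment between 2 SspI sites shown above, with 9.42-fold and 10.1-fold enrichment and 79 and 111 reads at the summit. The nearest untreated MT peak lay 4430 bp away. The second, chr11:108859469-108860178, had 6.65-fold and 6.20-fold enrichment with 27 and 28 reads. MTR held 1 at chr1:236878703-236879333 with 4.70-fold and 4.37-fold, SNRPN 1 at chr15:24974100-24975240 with 4.12-fold and 4.61-fold and ZFR 1 at chr5:32377180-32377639 with 3.19-fold and 3.06-fold. SNRPN served the study as a negative control for R-loops, and it also held 8 MT only regions. Where these regions lie relative to the control's primers was not examined. ZFR thus held both a WT only region and a region just outside the rule. The other 8 genes of this list held no WT only region.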

How the data were processed

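DRIP-seq peak lists of 8 Nalm-6 libraries were used, in 4 groups of 2 that follow the labelled genotype and RNH1 treatment. Per the labels and Methods, the authors aligned reads to GRCh38/hg38 with BWA, discarded duplicate and mitochondrial alignments, and ran MACS2 in narrow mode on each library by itself. The deposited fold enrichment is a ratio of the summit pileup over the local background. The authors' −log10 p-value and −log10 q-value were deposited beside it. Methods give a q of 0.05, while all lists hold q values of 0.01 or lower. The RNA-Seq splicing table of HEK293T cells was not used here.

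Peaks were merged with Python 3.11.15, numpy 2.4.6, pandas 2.3.3 and scipy 1.17.1, and annotated with GENCODE 44 in the order promoter (3 kb to each side), 5′ UTR, 3′ UTR, exon, intron, downstream (300 bp) and intergenic. Pileup and background were recovered as the whole number of reads whose Poisson p met the deposited −log10 p within 0.01. GC content, motifs and cut sites of the 5 enzymes (6 bp each) were read from hg38, whose copy held no repeat masking, so a planned share of repeats was not computed. Regions named are the 10 most and 5 least enriched (by the lower WT value), the 5 longest and the 5 just outside. Genes named are the 10 with most regions, the 10 densest and those of gene lists, and windows the 5 richest by each measure. Members and lists were chosen with earlier results of these data known. Presence rules carry no test. Groups of 2 libraries were compared by exact permutation tests. The steps were tested on simulated data. Exact cut positions, list shortening and the background near members were added after seeing the data. The values of 1 listed gene are not reported here.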

Additional observations from a re-analysis of the deposited data

How the results depend on the processing

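The number of WT only regions was 21489. It stayed within 1.5 times of this value with stricter q values, with another overlap rule, with summit windows, with only the WT RNH1 lists and with shortened MT lists. It fell to 12393 when 4-fold enrichment was required in both WT lists and rose to 33597 without the RNH1 criterion. Leaving out 1 of the 8 lists gave 21860 to 40148, the highest values being 40148 without WT untreated replicate 1 and 38505 without WT untreated replicate 2, since a single WT list then chose the regions. As a replicate block, the rule within 1 replicate number gave 51704 regions for number 1 and 44893 for number 2. The median GC content lay between 33.6% and 35.5% and the intergenic share between 35.4% and 37.7% under all 19 alternatives. The promoter share was 5.59% with promoters of 1 kb. Genes with a WT only region numbered 4847 with 3 kb added and 3118 with 4-fold enrichment. The difference of WT minus MT in shared regions near WT only regions was negative under 11 alternatives, from −0.19 at 2 kb to −0.0012 at 200 kb on the log2 scale, with exact p-values of 0.333 to 0.667. With summit reads in place of fold enrichment it reversed to 0.0204 (exact p = 0.333). It was −0.03 without WT untreated replicate 2, −0.03 in shared regions without an RNH1 peak and −0.01 at 50 kb. With the replicate block the p was 0.5, the smallest that 2 pairs allow. The share of WT only regions with both edges near a cut site was 16.8% within 50 bp, 12.6% within 25 bp and 24.01% within 100 bp. With shortened MT lists, WT only regions outnumbered MT only regions in 2406 instead of 175 windows and in 10 instead of 3 of the genes with most WT only regions. Depth limits every absence of a peak.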
